A study of Mus musculus with 12 samples.

Results

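The cholesterol synthesis and SREBP genes are 28 of the 24421 gene symbols in the kidney RNA-seq tables analysed here. They were chosen by symbol from their known roles, with earlier results of these data already known. Each symbol is represented by the row with the highest total count. They comprise 5 regulators of the SREBP pathway, 7 enzymes of the mevalonate section, 3 enzymes that make squalene and lanosterol, 8 enzymes that turn lanosterol into cholesterol, and 5 genes of sterol transport, efflux and esterification. All 28 passed the filter on low counts in each of the 5 comparisons below.

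Cells make cholesterol from acetyl-CoA through mevalonate, isoprenoids, squalene and lanosterol, and most enzymes of this route are encoded by target genes of SREBP2, a transcription factor held in the membrane of the endoplasmic reticulum. When membrane sterols are low, SCAP carries the SREBP precursor to the Golgi, where it is cleaved and its active part moves to the nucleus. When sterols are high, INSIG proteins hold SCAP and its cargo back, while oxysterols activate LXR receptors, which induce sterol efflux pumps. In the kidney the proximal tubule is rich in membranes, and cholesterol is known to accumulate in tubules after acute injury.

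The study used male mice at 6 weeks of age, of strain C57BL/6 by the labels and bred from Tet2+/- parents of C57BL/6J background by its methods, with 1 kidney library per mouse and 3 libraries in each of 4 groups. The baseline groups were wild-type (WT) and Tet2-/- mice with no operation. The IR groups were WT and Tet2-/- mice in which the right renal pedicle was clamped for 60 min, the left kidney was removed at release and the right kidney was taken 24 h later. Tet2 encodes an enzyme that oxidizes 5-methylcytosine in DNA, and the knockout is carried in every tissue, blood cells included. No sham-operated kidney was sequenced, so a difference between IR and baseline cannot be told apart from the effects of surgery and of losing the other kidney.

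Total counts per library ranged from 51007366 to 107969888, and the 28 genes had from 65 counts (Abcg1) to 63939.5 counts (Cyp51) in a library. Tet2 mRNA at baseline was 7.58 ± 1.47 FPKM (SD, n = 3) in WT and 12.1 ± 4.0 FPKM in Tet2-/- libraries, with a log2 fold change of 0.76 (SE, the standard error, 0.24, adjusted p = 0.321, edgeR quasi-likelihood test). It was therefore not lower at baseline in the libraries labelled Tet2-/-. After IR it was at 9.34, 3.97 and 3.86 FPKM in WT and at 2.64, 3.20 and 1.76 FPKM in Tet2-/- libraries, lower without overlap in the direction of the labels, though the log2 fold change of −1.28 did not pass (SE 0.36, adjusted p = 0.069, edgeR). The IR effect on Tet2 differed between genotypes by −2.001 on the log2 scale (SE 0.48, adjusted p = 0.0285, edgeR). Since the baseline values go against the labels, each genotype direction given here rests on the labels. Markers of kidney segments (9 genes) were present in all 12 libraries. They summed to 2664 to 4085 FPKM in 11 libraries and to 1051 FPKM in Tet2-/- IR replicate 3, where Umod, a gene of the thick ascending limb, was at 354 FPKM against 2018 and 2512 FPKM in the other Tet2-/- IR libraries. The counts of genes called after IR between genotypes are given with and without that library below. FPKM, read counts scaled to transcript length and library depth, are the levels the authors deposited. Fold changes are edgeR's, fitted to the deposited counts, and a gene is said to rise, fall or be higher or lower where its p, adjusted over all genes tested, is under 0.05. With 3 libraries against 3, an exact two-sided permutation test of a single gene cannot give a p below 0.1.

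The promoters of Hmgcs1, Mvd and Cyp51, which were lower in the Tet2-/- group after IR, and of Msmo1, which was not, show what kind of sequence lies before these genes. The 250 bases before the annotated start are printed 5′ to 3′ on the strand of the gene, from RefSeq on GRCm38.p6. Capitals mark TCACNCCAC and CACCCCAC, letters of the sterol regulatory element bound by SREBP, and CCAAT, the core of the NF-Y site, each on either strand (CCAAT then reads ATTGG).
Hmgcs1, chr13:119690101-119690350, plus strand: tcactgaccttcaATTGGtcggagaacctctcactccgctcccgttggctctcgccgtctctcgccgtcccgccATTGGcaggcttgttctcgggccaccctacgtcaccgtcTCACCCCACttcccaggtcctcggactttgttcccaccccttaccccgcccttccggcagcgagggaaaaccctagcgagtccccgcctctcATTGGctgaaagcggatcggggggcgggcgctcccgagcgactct
Mvd, chr8:122443423-122443672, minus strand: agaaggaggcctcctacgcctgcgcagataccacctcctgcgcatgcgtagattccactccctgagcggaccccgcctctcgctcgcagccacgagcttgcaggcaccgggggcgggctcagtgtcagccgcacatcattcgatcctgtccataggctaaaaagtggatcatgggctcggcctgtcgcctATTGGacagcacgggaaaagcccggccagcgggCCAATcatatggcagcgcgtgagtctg
Cyp51, chr5:4104698-4104947, minus strand: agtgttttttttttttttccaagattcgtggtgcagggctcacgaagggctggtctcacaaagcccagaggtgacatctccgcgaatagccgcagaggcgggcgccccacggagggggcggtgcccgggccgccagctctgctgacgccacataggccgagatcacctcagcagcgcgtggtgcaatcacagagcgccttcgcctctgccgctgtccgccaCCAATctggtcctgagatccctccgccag
Msmo1, chr8:64733579-64733828, minus strand: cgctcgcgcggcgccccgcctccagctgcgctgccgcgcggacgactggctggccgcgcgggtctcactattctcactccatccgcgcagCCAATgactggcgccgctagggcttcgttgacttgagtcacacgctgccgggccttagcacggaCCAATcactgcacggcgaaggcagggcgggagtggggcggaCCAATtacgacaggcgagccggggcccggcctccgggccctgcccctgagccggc

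Promoter sequences of 300 bases, 250 before and 50 after the start, were at hand for 23 of the 28 genes. CCAAT was found in 20 of the 23, against 41.06% of 27025 genes with a promoter in the same table. It was found in 9 of the 10 genes lower in the Tet2-/- group after IR and in 11 of the 13 others. GGGCGG, the core of the GC box bound by Sp1, was found in 22 of 23, against 38.2% of all genes. TCACNCCAC was found in Hmgcs1 only, 137 bases before the start, against 1.44% of all genes, and CACCCCAC in Hmgcs1, where it overlaps the longer match, and in Acat2, against 3.3% of all genes. A match is a run of letters, not a shown binding site, and a missing match says only that these letters do not occur in this window.

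**Figure D1:**
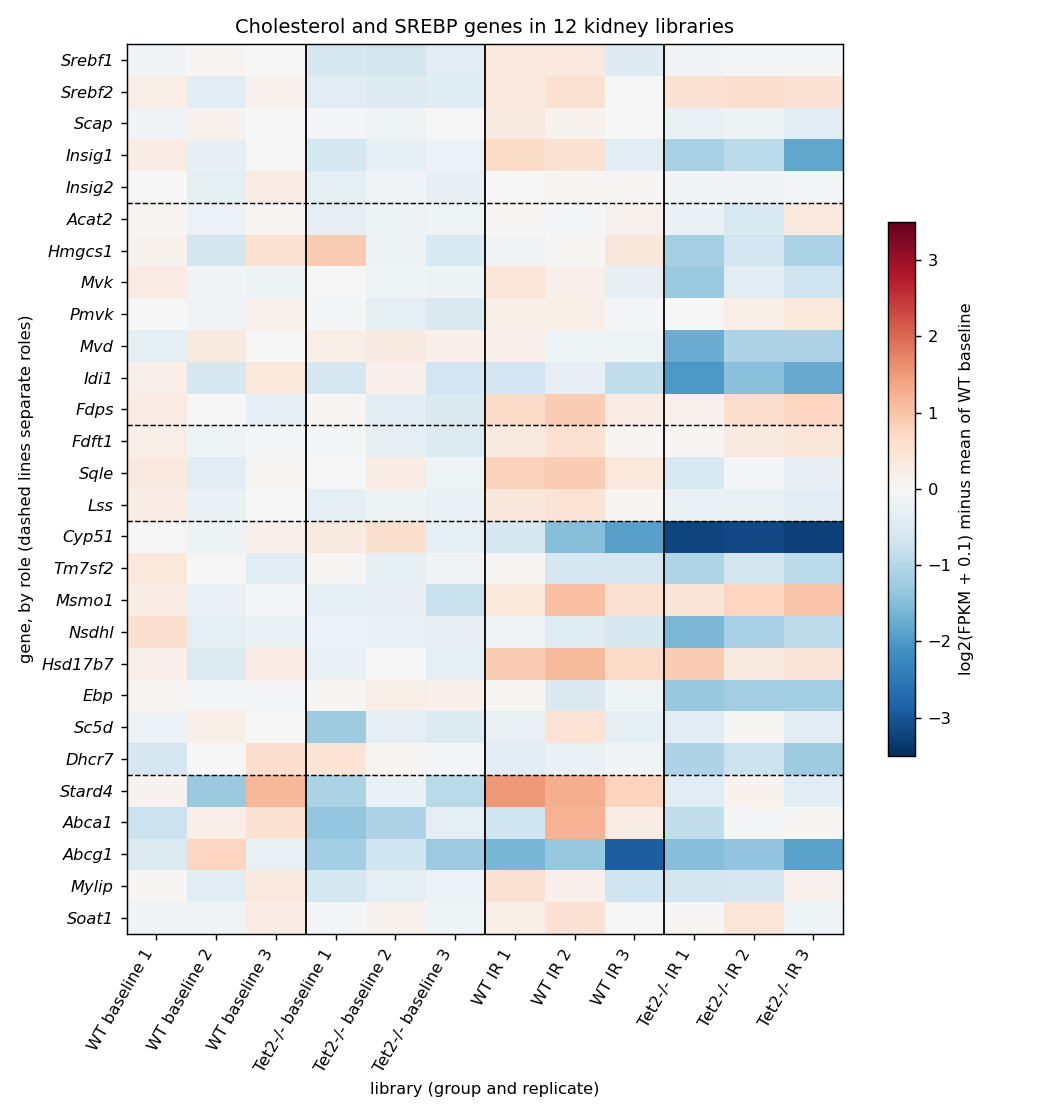
Heat map of the 28 genes (vertical axis, by role) in the 12 libraries (horizontal axis, 4 groups of 3). Color gives log2(FPKM + 0.1) minus the mean of the 3 WT baseline libraries. Cyp51 is the darkest blue row in the 3 Tet2-/- IR libraries, where its FPKM was from 6.83 to 7.29, while Srebf2 and Msmo1 are red there.

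At baseline, none of the 28 genes differed between genotypes. By the same test, 0.0124% of the 16086 genes tested were higher in the Tet2-/- group and 0% were lower. The median log2 fold change was −0.19 for the 28 genes and 0.00 for all genes. Without adjustment, 2 of the 28 had a p under 0.05, against 11.8% of all genes. DESeq2 also called 0 of the 28, against 0.522% of all genes higher and 2.72% lower. Srebf1, the SREBP gene best known for fatty acid synthesis, was at 9.02, 10.1 and 9.72 FPKM in WT replicates 1, 2 and 3 and at 6.39, 6.10 and 7.44 FPKM in Tet2-/- replicates 1, 2 and 3. These ranges did not overlap, but the log2 fold change of −0.44 did not pass the test (SE 0.12, adjusted p = 0.269, edgeR). Abcg1, an LXR-induced sterol efflux pump with the lowest counts of the 28, was at 1.18, 2.91 and 1.39 FPKM in WT and at 0.681, 1.01 and 0.642 FPKM in Tet2-/- libraries. Its log2 fold change was −1.14 (SE 0.37, adjusted p = 0.323, edgeR), with no overlap either. Srebf2, Msmo1 and Sc5d also had every Tet2-/- library below every WT library. Their log2 fold changes were −0.37, −0.38 and −0.56 (adjusted p = 0.44, 0.457 and 0.442, edgeR). The WT baseline libraries differed in summed adipocyte markers (12 genes), at 7.07, 59.99 and 156 FPKM in replicates 1, 2 and 3, against 5.12 to 8.38 FPKM in the Tet2-/- baseline libraries. The part of these markers in the baseline values was not tested beyond a fit with the adipocyte level as a covariate. That fit also called 0 of the 28, against 0.00622% of all genes higher and 0% lower.

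After IR, 12 of the 28 genes were lower and 0 higher in the Tet2-/- group than in the WT group. Over all 16186 genes tested, 6.17% were lower and 3.51% higher. The 12 were the regulators Scap and Insig1, the mevalonate enzymes Hmgcs1, Mvd and Idi1, the squalene and lanosterol enzymes Sqle and Lss, the later enzymes Cyp51, Nsdhl, Ebp and Dhcr7, and the sterol carrier Stard4. Of these, 8 were also lower by more than 2-fold in the fit (log2 fold change under −1), against 3.85% of all genes. The median log2 fold change was −0.57 for the 28 genes and 0.04 for all genes, and 25 of the 28 had a negative value, against 46.6% of all genes. In 15 of the 28 every Tet2-/- library was below every WT library by FPKM, as was so for 14.6% of all genes tested. In whole kidney, fewer cells of a type and less RNA per cell cannot be told apart.

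Among the regulators, Insig1, a sterol-sensing brake on SCAP and itself a classic SREBP target, was at 21.0, 19.2 and 10.3 FPKM in WT IR replicates 1, 2 and 3. It was at 5.95, 6.91 and 3.68 FPKM in Tet2-/- IR replicates 1, 2 and 3. All Tet2-/- values were below the lowest WT value, that of replicate 3. The means were 16.8 ± 5.72 and 5.51 ± 1.66 FPKM (SD, n = 3), and the log2 fold change was −1.70 (SE 0.28, adjusted p = 0.0176, edgeR). Scap, the escort of SREBP, was at 30.1, 25.9 and 23.6 FPKM in WT and at 20.2, 21.2 and 18.3 FPKM in Tet2-/- libraries. The groups did not overlap, and the log2 fold change was −0.51 (SE 0.12, adjusted p = 0.0445, edgeR), the smallest of the 12. Srebf2, which encodes the factor that drives the cholesterol enzymes, did not pass the test, with 14.2 ± 2.57 FPKM in WT and 16.6 ± 0.285 FPKM in Tet2-/- libraries (SD, n = 3) and a log2 fold change of 0.14 (SE 0.13, adjusted p = 0.511, edgeR). Srebf1, at 10.4 ± 2.996 and 9.18 ± 0.192 FPKM, had a log2 fold change of −0.26 (adjusted p = 0.397). Insig2, a second INSIG that is not a typical SREBP target, was at 14.1 ± 0.232 and 13.1 ± 0.166 FPKM with a log2 fold change of −0.20 (adjusted p = 0.316).

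The mevalonate enzymes split into 3 that were lower and 4 that did not pass. Mvd, which decarboxylates mevalonate diphosphate, was at 41.6, 32.8 and 33.0 FPKM in WT IR replicates and at 10.9, 17.3 and 16.9 FPKM in Tet2-/- IR replicates. The lowest WT library was well above the highest Tet2-/- library, and the log2 fold change was −1.35 (SE 0.21, adjusted p = 0.0163, edgeR). Idi1, the isomerase that makes dimethylallyl diphosphate, was at 4.87, 6.41 and 4.24 FPKM in WT and at 1.87, 2.80 and 2.26 FPKM in Tet2-/- libraries. Again the groups did not overlap (log2 fold change −1.26, SE 0.20, adjusted p = 0.0175, edgeR). Hmgcs1, the HMG-CoA synthase of the cytosol, was at 5.94, 6.76 and 8.56 FPKM in WT and at 2.88, 4.09 and 3.01 FPKM in Tet2-/- libraries. Its groups were separate as well (log2 fold change −1.21, SE 0.22, adjusted p = 0.0221, edgeR). Mvk, mevalonate kinase, had ranges that did not overlap, 8.29 to 13.6 FPKM in WT and 4.04 to 7.63 FPKM in Tet2-/- libraries, but its log2 fold change of −0.997 narrowly missed the threshold (SE 0.25, adjusted p = 0.0514, edgeR).

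The rest of this section gave overlapping groups. Acat2, the cytosolic thiolase at the entry of the route, was at 39.3 ± 2.68 FPKM in WT and 35.3 ± 11.01 FPKM in Tet2-/- libraries (SD, n = 3). Pmvk, phosphomevalonate kinase, was at 10.5 ± 1.18 and 11.1 ± 1.53 FPKM, and Fdps, which makes farnesyl diphosphate, at 12.5 ± 2.68 and 11.7 ± 2.47 FPKM. Their log2 fold changes were from −0.24 (Acat2) to 0.00 (Pmvk), with adjusted p from 0.592 to 0.995 (edgeR). Counts of some members depend on how reads shared with similar loci were placed. In the mm9 genome, stretches of at least 200 bases with at least 95% identity elsewhere covered 96.4% of the Fdps transcript (4 other loci), 86.6% of Idi1 (2), 76.7% of Insig1 (1), 56.3% of Fdft1 (1) and 19.8% of Acat2 (1). The row used for Hmgcs1 lies on the unplaced sequence chr13_random of mm9, and its copies were not counted here.

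**Figure D2:**
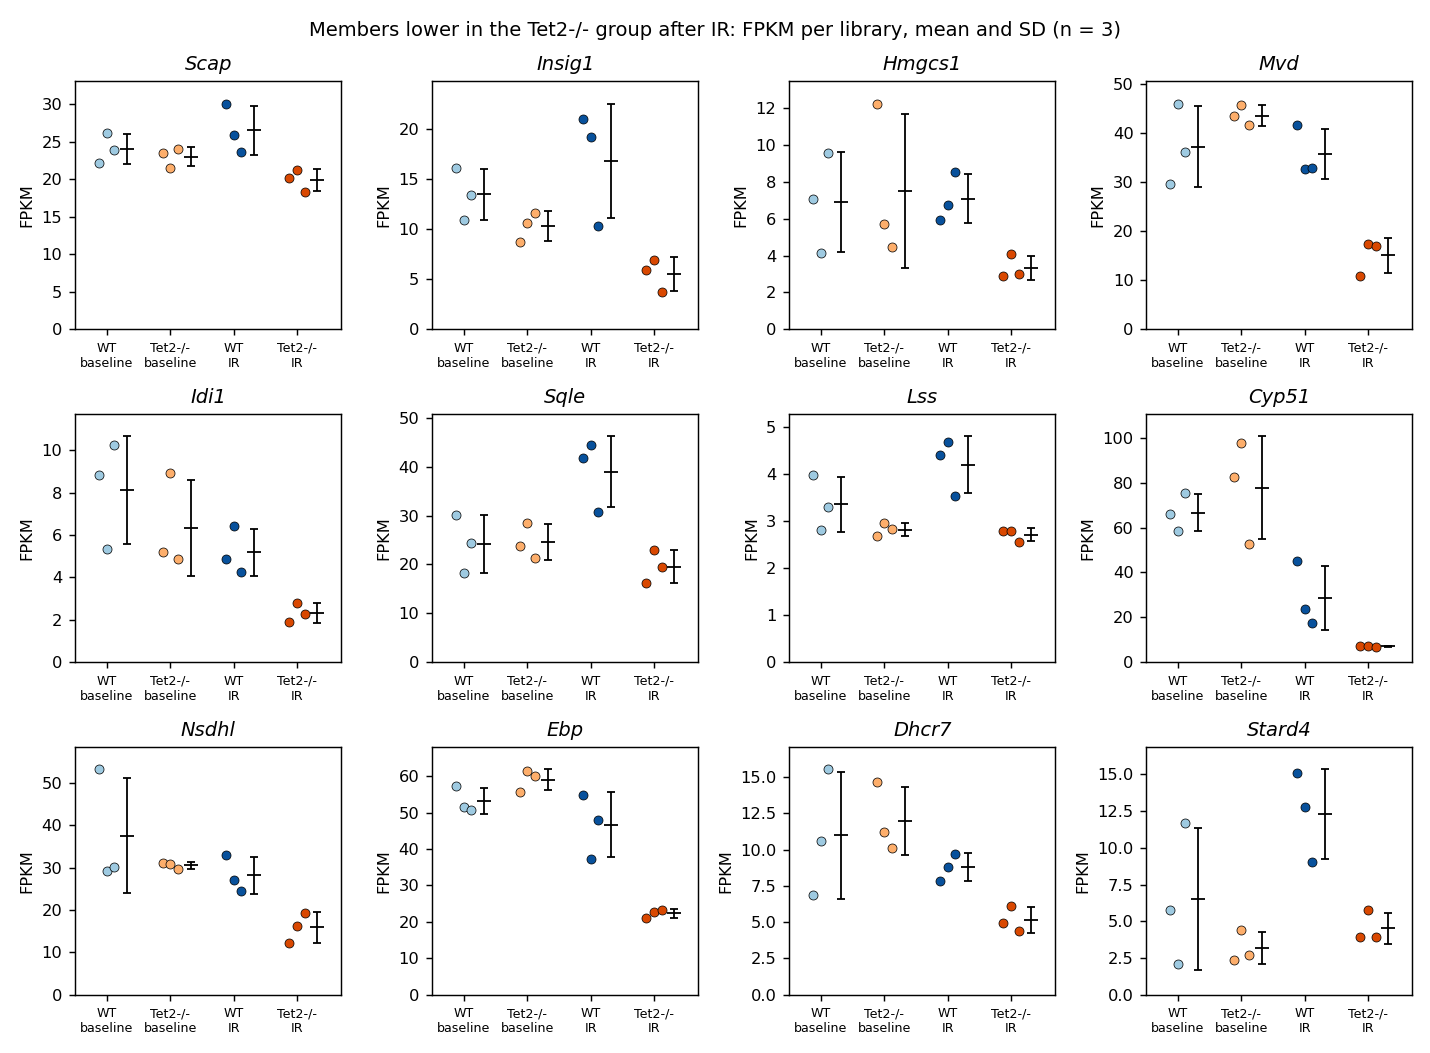
FPKM (vertical axes, from 0) of the 12 genes lower in the Tet2-/- group after IR, by group (horizontal axes). Points are libraries, and the bar beside them gives the mean and SD of 3 libraries. In each panel the 3 Tet2-/- IR points lie below the 3 WT IR points, with Cyp51 at 7.05 against 28.6 FPKM on average.

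Of the enzymes that make squalene and lanosterol, Sqle and Lss were lower in the Tet2-/- group and Fdft1 was not. Sqle, squalene epoxidase and a rate-limiting step of the late pathway, was at 41.9, 44.4 and 30.8 FPKM in WT IR replicates and at 16.3, 22.9 and 19.6 FPKM in Tet2-/- IR replicates. The groups did not overlap, with a log2 fold change of −1.09 (SE 0.16, adjusted p = 0.0146, edgeR). Lss, lanosterol synthase, was at 4.40, 4.68 and 3.53 FPKM in WT and at 2.80, 2.78 and 2.55 FPKM in Tet2-/- libraries. Its log2 fold change was −0.72 (SE 0.12, adjusted p = 0.0178, edgeR), also without overlap. Fdft1, squalene synthase, had overlapping groups at 9.27 ± 1.56 and 9.03 ± 1.25 FPKM (SD, n = 3) and a log2 fold change of −0.12 (SE 0.16, adjusted p = 0.636, edgeR).

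Of the 8 enzymes between lanosterol and cholesterol, 4 were lower in the Tet2-/- group and all 8 had a negative log2 fold change. Cyp51, the lanosterol 14-alpha demethylase (chromosome 5 of mm9, 4080674 to 4104697), was at 44.9, 23.4 and 17.5 FPKM in WT IR replicates and at 7.04, 7.29 and 6.83 FPKM in Tet2-/- IR replicates. The WT libraries spread widely while the Tet2-/- libraries lay close together, and the WT mean was 4.06-fold the Tet2-/- mean. The log2 fold change was −2.10 (SE 0.31, adjusted p = 0.0152, edgeR). Ebp, the sterol isomerase (chromosome X, 7762455 to 7770638), was at 55.0, 37.3 and 47.9 FPKM in WT and at 21.0, 22.8 and 23.1 FPKM in Tet2-/- libraries. Its groups were well apart (log2 fold change −1.17, SE 0.19, adjusted p = 0.0175, edgeR). Nsdhl, which removes the C4 carboxyl group, was at 33.1, 27.0 and 24.5 FPKM in WT and at 12.1, 16.2 and 19.4 FPKM in Tet2-/- libraries. Dhcr7, the last enzyme of one branch, was at 7.84, 8.82 and 9.73 FPKM in WT and at 4.91, 6.10 and 4.37 FPKM in Tet2-/- libraries. Neither gene overlapped between groups, and their log2 fold changes were −0.91 (SE 0.21, adjusted p = 0.0407) and −0.89 (SE 0.17, adjusted p = 0.0251) in edgeR.

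The other 4 enzymes of this section did not pass the test. Msmo1, the C4-methyl sterol oxidase, was at 16.9, 27.3 and 18.8 FPKM in WT and at 18.0, 22.0 and 26.0 FPKM in Tet2-/- libraries, fully overlapping (log2 fold change −0.01, SE 0.22, adjusted p = 0.973, edgeR). Tm7sf2, a sterol C14 reductase, was at 7.79 ± 2.09 and 5.39 ± 0.822 FPKM (SD, n = 3) and its groups did not overlap, but the log2 fold change of −0.63 had an adjusted p of 0.113 (edgeR). Hsd17b7, the 3-keto sterol reductase, and Sc5d, the C5 desaturase, had log2 fold changes of −0.42 (adjusted p = 0.189) and −0.35 (adjusted p = 0.326). Exons of Tm7sf2 overlap those of another gene on the same strand, and exons of Srebf1, Scap, Fdft1 and Lss overlap genes on the opposite strand. Whether the authors' counting used strand is not given in the sources used here, so part of these counts could belong to the partner.

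Among the transport genes, Stard4, a soluble carrier of cholesterol between membranes and an SREBP target, was at 15.1, 12.8 and 9.01 FPKM in WT IR replicates and at 3.91, 5.74 and 3.94 FPKM in Tet2-/- IR replicates. The groups did not overlap, with a log2 fold change of −1.54 (SE 0.19, adjusted p = 0.0115, edgeR), and Stard4 was the only 1 of the 12 that passed in all 17 alternative fits. The LXR-side genes did not pass. Abca1, the efflux pump that loads cholesterol on apolipoproteins, was at 0.955, 3.88 and 1.94 FPKM in WT and at 0.851, 1.58 and 1.66 FPKM in Tet2-/- libraries. Abcg1 was at 0.485, 0.615 and 0.143 FPKM in WT and at 0.542, 0.590 and 0.385 FPKM in Tet2-/- libraries, so both overlapped between groups. Mylip, which encodes a ubiquitin ligase induced by LXR, and Soat1, which esterifies cholesterol, had log2 fold changes of −0.47 (adjusted p = 0.408) and −0.23 (adjusted p = 0.396, edgeR).

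**Figure D3:**
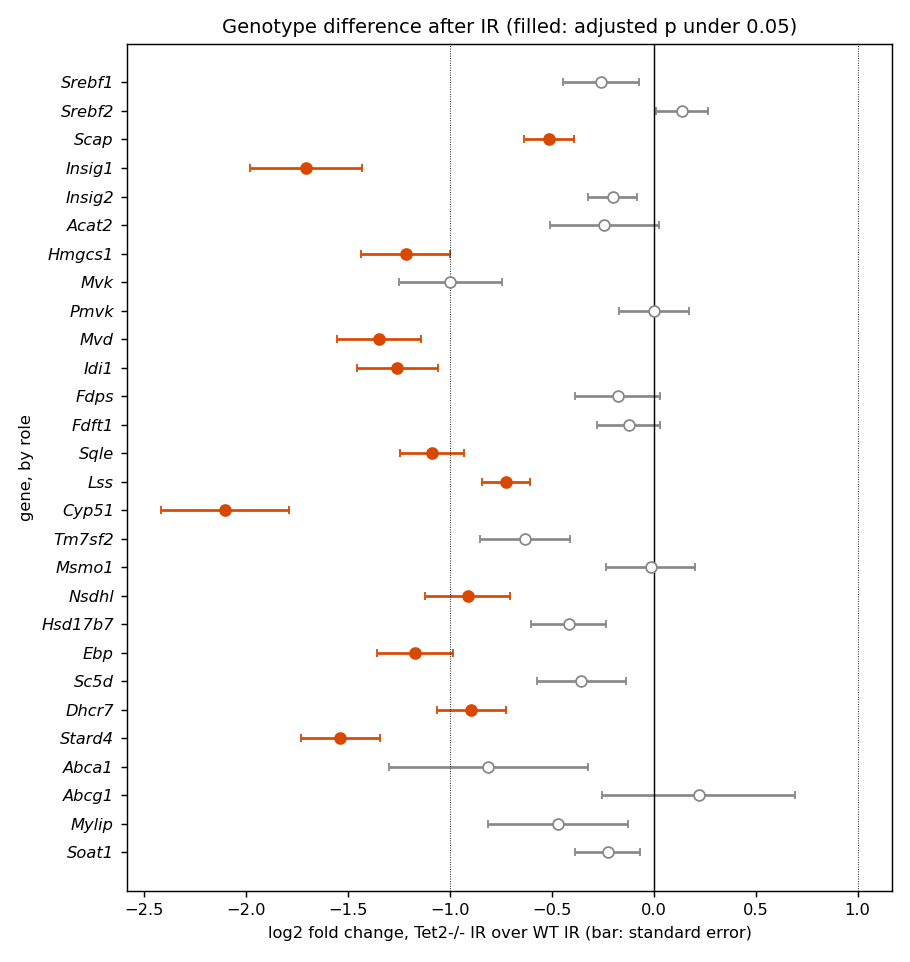
Genotype difference after IR for each gene (vertical axis, by role) as the fitted log2 fold change of Tet2-/- over WT with its standard error (horizontal axis, dotted lines at −1 and 1). Filled points have an adjusted p under 0.05 in edgeR, and all 12 of them lie left of 0, from −0.51 (Scap) to −2.10 (Cyp51).

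Of the 17 alternative fits, Mvd passed in 16, Sqle in 15, Insig1, Idi1 and Cyp51 in 14 each, Hmgcs1 and Ebp in 12 each, Lss, Nsdhl and Dhcr7 in 10 each and Scap in 3. The number of members called after IR depended on single libraries. Without WT IR replicate 1 it was 3 (Hmgcs1, Cyp51 and Stard4), against 1.52% of all genes lower in that fit. Without Tet2-/- IR replicate 1 it was 3 (Mvd, Sqle and Stard4), against 1.97% of all genes. It was 6 without WT IR replicate 3 (Insig1, Mvd, Idi1, Sqle, Cyp51 and Stard4), against 1.84%, and 7 without Tet2-/- IR replicate 2, where Scap, Lss, Nsdhl, Ebp and Dhcr7 lost the call, against 2.55%. Without WT IR replicate 2, Scap and Nsdhl lost it, and without Tet2-/- IR replicate 3, Scap, Hmgcs1 and Dhcr7 did. This left 10 members, against 4.79% of all genes lower, and 9, against 3.61%. The log2 fold change of each of the 12 stayed negative in all of these fits, and the highest adjusted p among the 12 over all alternatives was 0.15 (Scap). Tet2-/- IR replicate 3 had adipocyte markers at 178 FPKM in sum, against 7.77 to 17.4 FPKM in the other Tet2-/- IR libraries and 8.85 to 10.4 FPKM in the WT IR libraries. With the adipocyte level as a covariate, 7 members were lower, against 2.09% of all genes in that fit. Scap, Hmgcs1, Cyp51, Ebp and Dhcr7 lost the call there, with log2 fold changes of −0.49, −1.17, −2.09, −1.22 and −0.82 and adjusted p from 0.0506 (Ebp) to 0.0995 (Scap) in edgeR.

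Within the Tet2-/- group, 13 of the 28 genes were lower and 2 higher after IR than at baseline. Over all 16359 genes tested, 20.3% were lower and 22.9% higher. The 13 were Scap, Insig1, Hmgcs1, Mvk, Mvd, Idi1, Sqle, Cyp51, Tm7sf2, Nsdhl, Ebp, Dhcr7 and Abcg1, and 9 of them were lower by more than 2-fold in the fit, against 11.6% of all genes. Srebf2 and Msmo1 were higher. The median log2 fold change was −0.24 for the 28 genes and 0.04 for all genes. Scaled by library size alone, the median of all genes moved from 0.04 to 0.27, and 10 members were lower and 6 higher, against 14.1% and 32.2% of all genes. Under that scaling Scap, Sqle and Abcg1 lost the call, and Srebf1, Fdps, Fdft1 and Hsd17b7 also rose.

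Cyp51 fell furthest. Its FPKM was 82.8, 97.8 and 52.7 in Tet2-/- baseline replicates 1, 2 and 3, against about 7 in each of the 3 IR libraries given above. The baseline mean was 11-fold the IR mean, with a log2 fold change of −3.72 (SE 0.24, adjusted p = 9.47e-05, edgeR). Mvd was at 43.5, 45.8 and 41.6 FPKM at baseline and fell by 1.79 on the log2 scale (SE 0.19, adjusted p = 0.000464, edgeR). Ebp was at 55.8, 61.3 and 59.9 FPKM at baseline and fell by 1.66 (SE 0.12, adjusted p = 0.00015, edgeR). For all 3 enzymes every baseline library lay above every IR library. Idi1 fell by 1.72 (adjusted p = 0.00209), Dhcr7 by 1.49 (adjusted p = 0.000516), Hmgcs1 by 1.43 (adjusted p = 0.014), Nsdhl by 1.19 (adjusted p = 0.00238), Insig1 by 1.18 (adjusted p = 0.00421) and Tm7sf2 by 1.02 (adjusted p = 0.00254) on the log2 scale in edgeR. Srebf2 moved the other way from most of the enzymes, from 8.70, 8.35 and 8.54 FPKM at baseline to 16.5, 17.0 and 16.4 FPKM after IR. Its log2 fold change was 0.71 (SE 0.10, adjusted p = 0.00169, edgeR). Msmo1 went from 10.3, 10.7 and 7.50 FPKM to the IR values above, a log2 fold change of 0.96 (SE 0.20, adjusted p = 0.00699, edgeR). Both rises passed in all 17 alternative fits. Leaving out 1 library gave from 11 to 13 lower and from 2 to 3 higher members, against 13.7% to 21% and 14.5% to 23.4% of all genes. Scap lost its call without Tet2-/- baseline replicate 3, Sqle without Tet2-/- baseline replicate 2, and Abcg1 without Tet2-/- baseline replicate 2 or 3 or Tet2-/- IR replicate 1 or 3. Fdps was higher without Tet2-/- IR replicate 1, Hsd17b7 was higher without Tet2-/- IR replicate 2, and Mylip was lower without Tet2-/- IR replicate 3.

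Within the WT group, none of the 28 genes passed, with 7 at an unadjusted p under 0.05, against 22.7% of all genes, so that count is close to the share of all genes. Over all 16015 genes tested, 1.14% were lower and 1.88% higher. The median log2 fold change was 0.04 for the 28 genes and −0.03 for all genes. Cyp51 was at 66.0, 58.7 and 75.4 FPKM in WT baseline replicates and at 44.9, 23.4 and 17.5 FPKM in WT IR replicates. Every IR library was below every baseline library, but the log2 fold change of −1.30 did not pass (SE 0.32, adjusted p = 0.079, edgeR). Abcg1 was at 1.18, 2.91 and 1.39 FPKM at baseline and 0.485, 0.615 and 0.143 FPKM after IR, also without overlap (log2 fold change −2.23, SE 0.55, adjusted p = 0.0799, edgeR). WT libraries with the same replicate number deviated together, and with the replicate number as a block both genes passed, with log2 fold changes of −1.39 for Cyp51 (SE 0.27, adjusted p = 0.0263) and −2.31 for Abcg1 (SE 0.36, adjusted p = 0.0152, edgeR). That blocked fit called these 2 members lower, against 5.18% of all genes, and 0 higher, against 4.11%. The labels do not give this pairing. It was read from these same data, so the blocked calls are not separate support for a fall. DESeq2 called Cyp51 and Abcg1 lower and Hsd17b7 higher, and Cyp51 was also called without WT IR replicate 1. The summed adipocyte markers of the WT libraries, from 7.07 to 156 FPKM at baseline, were at 8.85 to 10.4 FPKM after IR. With the adipocyte level as a covariate, edgeR called 0 of the 28, and 0 of all genes, and gave Cyp51 a log2 fold change of −1.29 (adjusted p = 0.307) and Abcg1 one of −1.81 (adjusted p = 0.345). The part of these markers in the blocked values was not tested.

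Some enzymes had positive values in the WT group. Sqle was at 30.1, 18.2 and 24.4 FPKM in WT baseline and at 41.9, 44.4 and 30.8 FPKM in WT IR libraries, without overlap but with an adjusted p of 0.149 (edgeR) for a log2 fold change of 0.61. Hsd17b7 was at 5.37, 3.34 and 5.76 FPKM at baseline and 8.79, 10.1 and 7.57 FPKM after IR, with a log2 fold change of 0.80 (SE 0.22, adjusted p = 0.101, edgeR). For Msmo1, which rose in the Tet2-/- group, every WT IR library was also above every WT baseline library. Its log2 fold change in WT was 0.60 and did not pass (SE 0.21, adjusted p = 0.1625, edgeR). Stard4 was at 5.74, 2.08 and 11.7 FPKM at baseline, a spread that overlapped the IR values, and had a log2 fold change of 0.83 (SE 0.55, adjusted p = 0.414, edgeR).

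**Figure D4:**
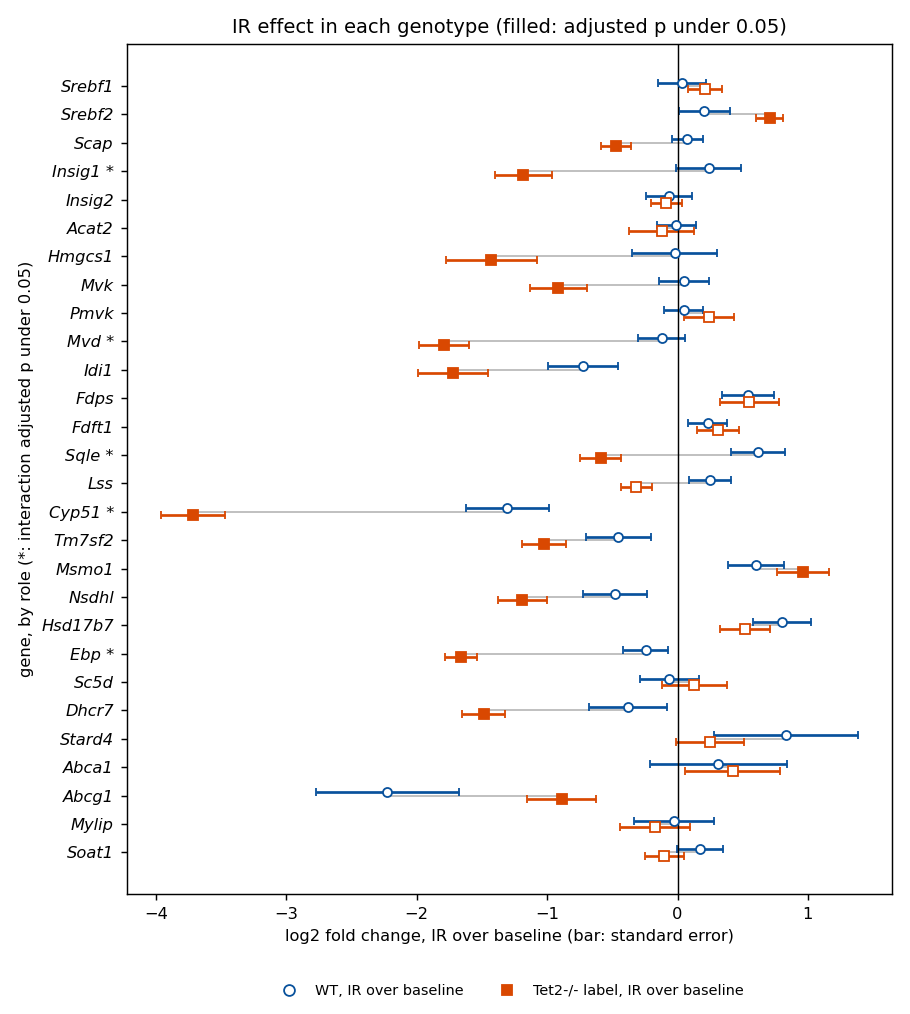
IR effect on each gene (vertical axis, by role) as the fitted log2 fold change of IR over baseline with its standard error (horizontal axis), for WT (blue circles) and for libraries labelled Tet2-/- (orange squares). Filled symbols have an adjusted p under 0.05 in edgeR, and a star marks an interaction with an adjusted p under 0.05. Cyp51 is at −1.30 in WT and −3.72 in Tet2-/- libraries, while Fdps is at 0.54 and 0.55.

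The interaction, fitted over all 12 libraries, tested whether the IR effect differed between genotypes. It passed for 5 of the 28 genes, all with a lower IR effect in the Tet2-/- group, against 5.39% of all 16741 genes lower and 3.79% higher. For Cyp51 the interaction was −2.37 on the log2 scale (SE 0.42, adjusted p = 0.00892, edgeR), for Mvd −1.63 (SE 0.27, adjusted p = 0.00692) and for Ebp −1.37 (SE 0.21, adjusted p = 0.00503). For Insig1 it was −1.38 (SE 0.35, adjusted p = 0.0358) and for Sqle −1.17 (SE 0.27, adjusted p = 0.0262). For Sqle and Insig1 the fitted IR effect was positive in WT (0.61 and 0.24, neither past the threshold) and both genes fell in the Tet2-/- group. The median was −0.37 for the 28 genes and 0.10 for all genes, and 12 of the 28 had an unadjusted p under 0.05, against 27.2% of all genes. The interaction shares its libraries with each of the comparisons above, so these counts are not independent of one another.

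Mvd kept its interaction call in all 22 alternative fits. Cyp51 and Ebp lost theirs only with the adipocyte level as a covariate, at −2.45 (adjusted p = 0.0773) and −1.36 (adjusted p = 0.0593, edgeR). That fit left 1 member, Mvd, called, against 0.317% of all genes lower. In it Insig1 was at −0.89 (adjusted p = 0.244) and Sqle at −1.05 (adjusted p = 0.149, edgeR). Sqle lost its call without Tet2-/- baseline replicate 2, WT IR replicate 1 or Tet2-/- IR replicate 1. Insig1 kept it in 4 of the 12 fits that left out 1 library. It lost it without WT baseline replicate 2 or 3, Tet2-/- baseline replicate 2 or 3, WT IR replicate 1 or 2, or Tet2-/- IR replicate 1 or 3, and its adjusted p over all alternatives ranged from 0.00276 to 0.244. Without WT baseline replicate 1, Nsdhl was called too, and without WT baseline replicate 3 Dhcr7 was. Without WT baseline replicate 2, Scap was called lower and Srebf2 higher. Srebf2 and Msmo1, the members that rose in the Tet2-/- group, had interactions of 0.54 (SE 0.23, adjusted p = 0.146) and 0.40 (SE 0.31, adjusted p = 0.441) in edgeR, so a difference in their IR effect between genotypes was not detected.

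The summed level of the 8 enzymes from lanosterol to cholesterol differed between groups side by side with markers of other cell types and of injury. This sum ran from 185 to 225 FPKM in WT baseline, 179 to 232 FPKM in Tet2-/- baseline, 140 to 184 FPKM in WT IR and 83.5 to 98.1 FPKM in Tet2-/- IR libraries. Cyp51, Ebp and Nsdhl took from 57.2% to 72.2% of it in WT IR and from 48.1% to 50.3% in Tet2-/- IR libraries. The other 5 enzymes, Msmo1 among them, summed to 49.9 to 65.6 and 43.3 to 49.6 FPKM in these groups. The 12 proximal tubule markers summed to 35740 to 54460, 53640 to 54500, 22740 to 26820 and 14800 to 23710 FPKM in the same order of groups. A single gene, Kap, took from 85.4% to 94.6% of this sum. Without it the other 11 summed to 2635 to 3394 FPKM in WT IR and 929 to 1587 FPKM in Tet2-/- IR libraries, and 4619 to 5592 FPKM at baseline. After IR, 5 of the 12 markers were lower and 0 higher in the Tet2-/- group, against 6.17% and 3.51% of all genes, with a median log2 fold change of −1.45 against 0.04. The 7 tubular injury markers summed to 1647 to 7849 FPKM in WT IR and 11970 to 25910 FPKM in Tet2-/- IR libraries, against 219 to 515 FPKM at baseline. Spp1 alone, which encodes osteopontin, took from 70.6% to 82.7% of this sum after IR. None of the 7 passed between genotypes after IR in either direction in edgeR, with 5 at an unadjusted p under 0.05 and a median log2 fold change of 1.69. The 10 neutrophil markers summed to 4.18 to 9.67 FPKM in WT IR and 75.9 to 135 FPKM in Tet2-/- IR libraries, against 0.682 to 3.19 FPKM at baseline. Of the 9 that could be tested after IR, 8 were higher in the Tet2-/- group and 0 lower. Between genotypes at baseline and for the IR effect in WT, only 5 of the 10 passed the filter on low counts. Markers that entered the test only through the Tet2-/- IR libraries, where they were high, had their direction fixed in advance. The 14 macrophage markers summed to 36.2 to 80.6 FPKM in WT IR libraries and to 114, 256 and 67.2 FPKM in Tet2-/- IR replicates 1, 2 and 3, so the groups overlapped. Lyz2 took 46.9% of the highest of these sums. Of the 14, 2 were higher and 0 lower in the Tet2-/- group after IR, against the same shares of all genes. Without Tet2-/- IR replicate 3, 5 proximal tubule markers were lower, and 0 injury, 7 neutrophil and 1 macrophage markers were higher, against 3.61% of all genes lower and 1.59% higher. The 9 markers of adrenal cortex summed to between 1.34 and 3.60 FPKM in all 12 libraries, with 2 of them listed at 0 in all baseline libraries. None of the proximal tubule, injury, neutrophil or macrophage markers was listed at 0 in all libraries of a group, and the part of these markers in the values of the cholesterol genes was not tested.

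**Figure D5:**
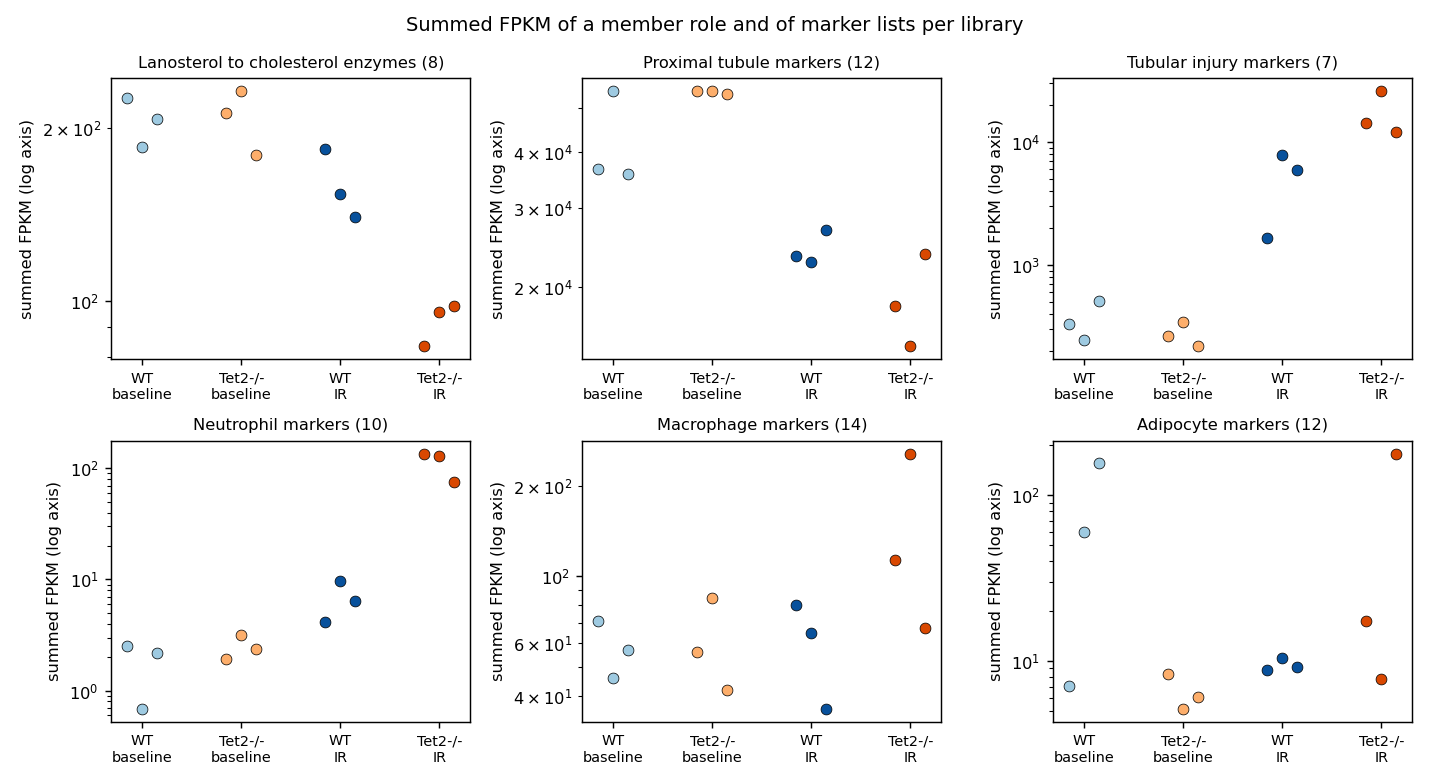
Summed FPKM (vertical axes, log scale) of the 8 enzymes from lanosterol to cholesterol and of 5 marker lists, by group (horizontal axes). Each point is 1 library. The enzyme sum is lowest in the Tet2-/- IR libraries, from 83.5 to 98.1 FPKM, where the proximal tubule sum, mostly Kap, is from 14800 to 23710 FPKM and the neutrophil sum from 75.9 to 135 FPKM.

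Other genes of cholesterol synthesis, uptake and SREBP processing (26 genes, all tested) gave 3 lower and 1 higher in the Tet2-/- group after IR, against 6.17% and 3.51% of all genes, with a median log2 fold change of −0.24. Acat1, the mitochondrial thiolase, was lower at 84.7 ± 13.4 against 172 ± 8.61 FPKM (SD, n = 3; log2 fold change −1.12, adjusted p = 0.0191, edgeR). Erlin1, which helps to restrain SREBP activation, was lower at 9.14 ± 1.14 against 16.2 ± 1.16 FPKM (log2 fold change −0.93, adjusted p = 0.0156, edgeR). Scarb1, a lipoprotein receptor, was higher at 9.70 ± 1.76 against 4.37 ± 1.21 FPKM (log2 fold change 1.05, adjusted p = 0.0352, edgeR). Without Tet2-/- IR replicate 3, 2 of the 26 were lower and 0 higher, Acat1 and Erlin1 kept the call, and Scarb1 lost it (log2 fold change 1.06, adjusted p = 0.0669, edgeR). Within the Tet2-/- group, 10 of the 26 were lower and 6 higher after IR than at baseline, against 20.3% and 22.9% of all genes, so the share that was higher was close to that of all genes. None passed within the WT group or between genotypes at baseline.

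Of 18 fatty acid synthesis genes known as SREBP1 targets, 5 were lower and 0 higher in the Tet2-/- group after IR, against 6.17% and 3.51% of all genes, with a median log2 fold change of −0.56. Scd1, the stearoyl-CoA desaturase, was at 91.5, 21.3 and 20.8 FPKM in WT IR and at 10.7, 6.13 and 3.60 FPKM in Tet2-/- IR libraries (log2 fold change −2.79, adjusted p = 0.0477, edgeR). Acss2, which makes acetyl-CoA from acetate, was at 130, 61.4 and 86.4 FPKM in WT IR and at 20.5, 24.8 and 13.0 FPKM in Tet2-/- IR libraries (log2 fold change −2.37, adjusted p = 0.013, edgeR). Fads2, a desaturase of polyunsaturated fatty acids, had a log2 fold change of −1.97 (adjusted p = 0.0089, edgeR), and for all 3 genes the groups did not overlap. Without Tet2-/- IR replicate 3, 3 of the 18 were lower and 0 higher, with Acss2 and Fads2 among them, and Scd1 lost the call (log2 fold change −2.52, adjusted p = 0.107, edgeR). Within the Tet2-/- group 11 of the 18 fell and 3 rose after IR, against 20.3% and 22.9% of all genes. The interaction passed as lower for Acss2 (−2.27, adjusted p = 0.00905) and Aacs, an acetoacetyl-CoA synthetase (−2.29, adjusted p = 0.0079), and as higher for Mid1ip1, a regulator of acetyl-CoA carboxylase (1.72, adjusted p = 0.0273, edgeR).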

How the data were processed

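Kidney RNA-seq libraries of 12 mice were analysed in 4 groups of 3, taken from the GEO labels. Alignment by the authors used STAR and the mm9 genome, and HOMER gave counts for RefSeq transcripts. The authors deposited raw expected counts per transcript and FPKM of the same rows. Tool versions are not given in the sources used here. Of the deposited expected counts 38.7% are not whole, so they were rounded. The 34600 rows hold 24421 symbols, and the row with the highest total was kept (39 rows for the 28 genes, 8 with more than 1 row).

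Here, edgeR 4.0.16 in R 4.3.3 was run per comparison on its 6 libraries (all 12 for the interaction) with filterByExpr and TMM, followed by its quasi-likelihood F test, with p adjusted by Benjamini-Hochberg across every gene tested. Alternatives were DESeq2 1.42.0, library sizes alone, upper quartile, no filter, limma 3.58.1 on log2(FPKM + 1) and log2(FPKM + 0.1), all 12 libraries, a replicate block, an adipocyte covariate, all transcripts and each library left out. All members are named, and of the other lists up to 3 genes in each direction with an adjusted p under 0.05, the largest log2 fold change and a mean FPKM of at least 1. The members, lists and tests were chosen with earlier results of these data known. Some genes of the list of other cholesterol genes are counted but not reported here by name. The same replicate number is used in each group. Same-numbered WT libraries correlated in their deviations from the group means (0.372, 0.31 and 0.316 over 12213 genes), although the labels do not say that they share anything. This was taken as pairing for the IR effect in WT only. Where nothing else is stated, p-values weigh a difference against the spread between mice within the groups of the fit. The scripts were tested on simulated counts. Similar loci were found with BLAST 2.17.0, and plots made in Python 3.11.15 with matplotlib 3.10.9. Total counts per library were from 51007366 to 107969888, and the lowest count of a member in a library was 65 (Abcg1), so the values of Abcg1 carry the most counting error.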

Additional observations from a re-analysis of the deposited data

Results flagged for a closer look

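Under IR, 5 genes had a response that differed between the genotypes by the interaction test over all 12 libraries (edgeR, adjusted p under 0.05). The interaction on the log2 scale was −2.37 for Cyp51, −1.63 for Mvd, −1.38 for Insig1, −1.37 for Ebp and −1.17 for Sqle, each with the more negative IR effect in the libraries labelled Tet2-/-. The 5 rest on the same 12 libraries, and the baseline libraries had no operation. With the adipocyte level as a covariate only Mvd kept its call.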

How the results depend on the processing

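None of the 28 genes passed between genotypes at baseline in any alternative fit, and no value that had passed changed sign. After IR, the 12 lower members became 3 with limma on log2(FPKM + 1) without a filter (2.29% of all genes lower), 7 with the adipocyte level as a covariate (2.09%), and from 3 to 10 with 1 library left out (1.52% to 4.79%). The IR effect in WT gave 1 higher and 2 lower members with DESeq2 (6.87% and 5.45% of all genes), 0 and 2 with all 12 libraries in a single fit (3.94% and 2.43%), 0 and 2 with the replicate block (4.11% and 5.18%), and from 0 to 1 lower with 1 library left out (0.228% to 1.36%). Within the Tet2-/- group, library sizes alone gave 6 higher members (32.2% of all genes), limma on log2(FPKM + 1) and on log2(FPKM + 0.1) 7 each (37.3% and 37.8%), limma without a filter 6 higher and 8 lower (23.7% and 10.5%), and a threshold of 2-fold 0 higher (2078 of all 16359 genes). The interaction gave 10 lower members with DESeq2 (9.56% of all genes lower), 3 with limma without a filter (2.29%) and 1 with the adipocyte covariate (0.317%). With 1 library left out it gave from 3 to 6 lower (2.86% to 6.27% of all genes) and from 0 to 1 higher (0.865% to 5.77%). The replicate block gave 10 lower members after IR between genotypes (5.88% of all genes) and 7 in the interaction (6.43%). Between genotypes at baseline, same-numbered libraries correlated in their deviations at −0.16, −0.243 and 0.108. The correlations were 0.022, 0.198 and 0.357 between genotypes after IR. For the IR effect in the Tet2-/- group they were 0.072, 0.306 and 0.239. Some of these were near those in WT, but the number was taken as a pairing in WT only, and the labels give none. Library sizes alone moved the median of all genes after IR from 0.04 to 0.14 between genotypes, with 11 lower members (4.84% of all genes), and from 0.10 to 0.24 in the interaction, with 4 (4.18%). The cause of these changes was not tested. Over all alternatives and members, 2372 of 2516 values were on the same side of the threshold, 97 lost and 47 gained significance. Values that passed in neither fit were counted as the same whatever their sign. Depth limits Abcg1 most, with as few as 65 counts in a library.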

Other observations

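LXR and oxysterol genes were tested beside the cholesterol genes. After IR, 3 of the 16 tested were lower and 1 higher in the Tet2-/- group, against 6.17% and 3.51% of all genes. Without Tet2-/- IR replicate 3, 4 of the 16 were lower and 2 higher, against 3.61% and 1.59% of all genes. Cyp7b1, an oxysterol 7-alpha hydroxylase, was at 74.8, 38.8 and 35.8 FPKM in WT IR and at 8.84, 4.83 and 1.41 FPKM in Tet2-/- IR libraries, with no overlap (log2 fold change −3.41, SE 0.64, adjusted p = 0.0244, edgeR). It also fell after IR in the WT group (log2 fold change −1.53, adjusted p = 0.0365) and in the Tet2-/- group (−5.36, adjusted p = 0.00187), with an interaction of −3.79 (adjusted p = 0.0233, edgeR). Nr1h3, which encodes LXR-alpha, was lower at 20.5 ± 1.94 against 33.1 ± 4.65 FPKM (SD, n = 3; log2 fold change −0.79, adjusted p = 0.0262, edgeR), and Cyp27a1, the sterol 27-hydroxylase, at 11.5 ± 1.26 against 18.6 ± 0.924 FPKM (log2 fold change −0.78, adjusted p = 0.0336, edgeR). Ch25h, which makes 25-hydroxycholesterol, rose after IR in the Tet2-/- group, from 0.307, 0.462 and 0.248 FPKM to 11.8, 5.83 and 1.86 FPKM (log2 fold change 3.97, adjusted p = 0.0028, edgeR), while between genotypes after IR its log2 fold change of 2.41 did not pass (adjusted p = 0.0734).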
